A study of Drosophila melanogaster with 28 samples.

Results

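The fruit fly dosage compensation machinery was followed here through Pol II occupancy, at the 7 genes msl-1, msl-2, msl-3, mle, mof, lncRNA:roX1 and lncRNA:roX2. They were taken by name from 16513 genes tested, each gene being represented by its transcript with the highest mean count, and all 7 had enough reads to be tested. The measurement was ChIP-seq of Rpb3, a subunit of RNA polymerase II (Pol II), in Drosophila melanogaster embryos of stage 5, the stage of zygotic genome activation (ZGA). DomKD embryos (genotype label t216) were laid by mothers whose germline expressed an shRNA against domino under a maternal alpha-tubulin Gal4 driver, and Domino is the ATPase that puts the histone variant H2A.Z into chromatin. Ctrl embryos (genotype label t180) came from the control RNAi line. Each group had 2 libraries, 4 of the 28 samples of the series, all were made from pooled embryos, and the labels give no sex.

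In Drosophila males the single X chromosome is transcribed at a raised rate so that its output matches that of the autosomes. The male-specific lethal (MSL) complex does this: it binds the male X and acetylates histone H4 at lysine 16. MSL2 is the subunit made only in males, MSL1 is the scaffold, MSL3 carries a chromodomain, MOF is the acetyltransferase and MLE is an RNA helicase. The long noncoding RNAs roX1 and roX2 are encoded on the X, replace each other in function and are loaded by MLE into the complex. MSL1, MSL3, MLE and MOF reach the embryo from the mother, whereas roX1 is known to be transcribed in early embryos of both sexes and roX2 only later.

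The sequence that both RNAs share is the roX box, searched here as GTTNTACG on the transcribed strand, which sits in the stem-loops that MLE unwinds. The span of roX1 (FBtr0345714, X:3857230-3862061, minus strand, 4832 nt) held 3 matches and that of roX2 (FBtr0073515, X:11579065-11580432, plus strand, 1368 nt) held 2, all in exons. They are given 5′ to 3′ from the dm6 genome of RefSeq, with the box in capitals, because they mark the part of each gene that the RNA needs for its function.
roX1 box at X:3859021-3859052: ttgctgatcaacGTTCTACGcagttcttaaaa
roX1 box at X:3858954-3858985: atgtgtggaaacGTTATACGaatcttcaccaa
roX1 box at X:3858903-3858934: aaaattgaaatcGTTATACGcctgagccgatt
roX2 box at X:11580067-11580098: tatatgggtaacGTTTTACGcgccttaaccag
roX2 box at X:11580132-11580163: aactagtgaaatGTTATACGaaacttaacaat
Of 4860 windows of the X as long as roX1, 1.296% held 2 or more matches on the strand read, and of 17161 windows as long as roX2, 0.128% did. The boxes of roX1 lay 1685 to 1803 nt before the end of its longest span and those of roX2 lay 281 to 346 nt before the end.

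Pol II was dense at roX1 and msl-2 and sparse at roX2 and mof. Read density was taken as reads per kb of span relative to library size (CPM per kb, CPM being the count scaled to a common library size). It was divided by the background of the same library, the most common density among long genes of all chromosomes, so that a value of 1 means this common density. The X background was 0.798 and 0.747 times the autosomal one in DomKD and 0.700 and 0.730 times in Ctrl. Values of the X-linked roX1, roX2 and mof are therefore low beside those of autosomal genes. The density of roX1 was 51.9 and 19.5 times background in DomKD replicates 1 and 2, against 31.4 and 34.05 times in Ctrl replicates 1 and 2. Averaged over the 4 libraries this was 32.3 times, rank 90 among the 16513 genes. In bulk embryos, Pol II on a gene in fewer cells and less Pol II per cell cannot be told apart.

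The second long noncoding RNA was far below it. roX2 stood at 2.39 and 1.51 times background in DomKD and at 2.80 and 2.97 times in Ctrl. Within a library roX1 was 21.7 and 12.9 times as dense as roX2 in DomKD, against 11.2 and 11.5 times in Ctrl.

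Among the protein genes, msl-2, which encodes the male-limited subunit, was the densest. It had 19.1 and 8.37 times background in DomKD and 13.2 and 14.9 times in Ctrl, which placed it at rank 344. The other subunit genes lay lower, with mean densities over the 4 libraries of 3.90 times background for mle, 3.81 for msl-3, 3.46 for msl-1 and 1.96 for mof. A gene was called occupied at a mean of at least 2 times background, so 6 of the 7 were occupied, as were 5961 of all 16513 genes, and mof was just under that limit. It had 1.56 and 1.34 times background in DomKD and 2.51 and 2.78 times in Ctrl, so it was above the limit in both Ctrl libraries. roX2, at a mean of 2.30, was the occupied one nearest to the limit.

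**Figure D1:**
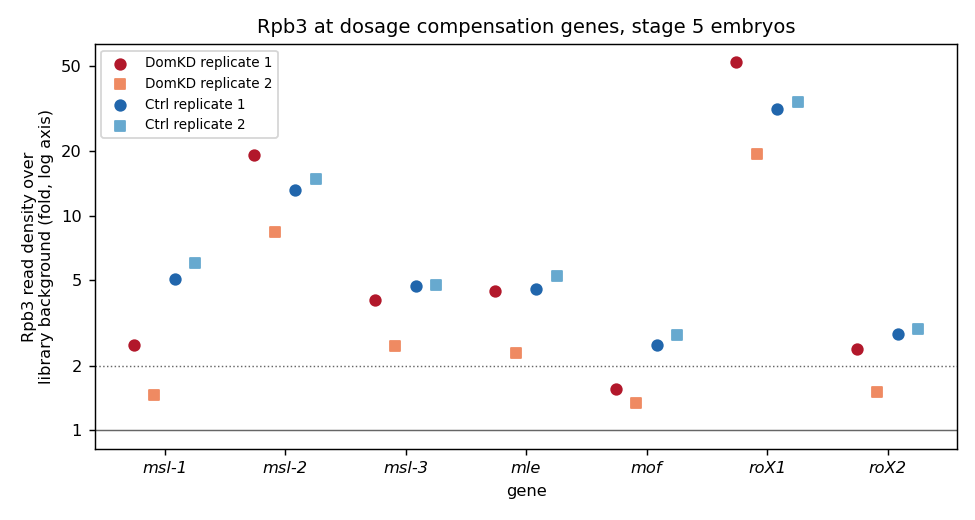
Rpb3 read density over the background of the same library (fold, log axis) at the 7 genes, with 1 point per library. The solid line marks background and the dotted line the occupancy limit of 2; roX1 and msl-2 were the densest genes in each of the 4 libraries, and DomKD replicate 2 had the lowest point at every gene.

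The stage of the embryos was visible in the same measure. Of 61 genes known to be switched on at ZGA, 55 were occupied, with a median of 10.7 times background, whereas 1 of 14 late differentiation genes was, with a median of 0.97 times. DomKD replicate 2 stood apart, with a background of 7.04 CPM per kb against 4.23 to 4.64 in the other 3 libraries, and the 2 DomKD libraries differed from each other by 27.4 times the variance of counting error, against 2.22 times for the 2 Ctrl libraries. The part of this difference in the results was not tested. The values of the 7 genes and of the gene lists without each DomKD library are given where they differ in direction or size. Such fits have 1 DomKD library, so their spread comes from the Ctrl pair alone and no p-value of theirs is given. The zygotic locus of dom is no direct check of a maternal knockdown. It had 600 and 371 CPM in DomKD and 617 and 664 CPM in Ctrl, a log2 fold change of -0.40 with an SE of 0.26 (edgeR adjusted p = 0.267), and His2Av, which encodes H2A.Z, had a log2 fold change of -0.35 (adjusted p = 0.250). Without DomKD replicate 1 dom was at -0.79 and His2Av at -0.53, and without DomKD replicate 2 they were at -0.10 and -0.20. Factors from early zygotic genes gave -0.71 for dom, which was then called (edgeR adjusted p = 0.0275).

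The comparison of DomKD with Ctrl asks whether loading of Pol II on these genes at ZGA changed when the mother had supplied less Domino. Of the 7 genes, 1 was called lower and 0 higher at an edgeR adjusted p under 0.05, whereas 12.7% of all genes tested were called lower and 2.46% higher. The median log2 fold change of the 7 was -0.22, that of all genes 0.07, and that of the occupied genes -0.40. Against the mean of Ctrl, the median of the occupied genes was -0.21 in DomKD replicate 1, whereas it was -0.59 in DomKD replicate 2, the library with the higher background, and the part of that background in the values was not tested. The split of the calls depended on the scaling: 83.7% of the 2497 called genes were lower. It was 94.5% with library size alone and 99.8% with factors from early zygotic genes. When scaled and tested on occupied genes only, an alternative chosen after seeing the data, it was 48.04%. That alternative centres the occupied genes near 0, with a median of -0.04 against -0.40 in the main fit. A gene called higher on occupied genes only was thus higher relative to that set, whose general fall the scaling takes out.

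The gene that fell was msl-1, the gene of the scaffold protein that holds MSL2, MSL3 and MOF together (FBgn0005617, FBtr0081130, 2L:18683720-18688800, minus strand). It had 62.5 and 48.2 CPM in DomKD, against 117 and 128 CPM in Ctrl. Both DomKD libraries were below both Ctrl libraries, with means of 55.3 ± 10.1 CPM and 123 ± 7.68 CPM (SD, n = 2 each). This was a log2 fold change of -1.15 ± 0.22 (SE), with an edgeR likelihood ratio test adjusted p of 2.66e-05 and a 95% interval of -1.58 to -0.72. Its difference from the median of the occupied genes was -0.75. When scaled and tested on occupied genes only, its log2 fold change was -0.79 (edgeR adjusted p = 4.93e-09). Occupied genes were picked on the mean of all 4 libraries, so that p-value is not independent of the choice of genes. msl-1 was above the limit of 2 in both Ctrl libraries and DomKD replicate 1, but at 1.47 times background in DomKD replicate 2. Leaving out 1 library at a time gave -1.35 to -0.98, and the call did not hold without Ctrl replicate 2, where the value was -1.08.

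The 2 transcripts of msl-1 differ in their 3′ ends, so reads could be placed in the shared 5′ part or in the extension. The 5′ part (3817 nt) had 2.69 and 1.67 times background in DomKD and 5.29 and 6.24 times in Ctrl. The 3′ extension (1264 nt) had 1.90 and 0.86 times in DomKD and 4.41 and 5.26 times in Ctrl. The deficit was thus present in both parts, with log2 ratios of the mean CPM of -1.06 and -1.50, and in DomKD replicate 2 the 3′ extension was not above background. The 100 bases before the start of msl-1 are shown, since it was the gene that fell; they are given 5′ to 3′ on the transcribed strand, and the promoter (250 nt before to 50 nt after the start) held no match to any of the 4 motifs given with the promoters of msl-3 and roX1.
msl-1 promoter at 2L:18688801-18688900: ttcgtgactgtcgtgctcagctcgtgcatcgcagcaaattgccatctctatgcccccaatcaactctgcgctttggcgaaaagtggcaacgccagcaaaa
Both genes beside msl-1 were lower as well. CG31751 ends 4 nt from msl-1 on the other strand and had a log2 fold change of -0.81 (edgeR adjusted p = 0.00299), and CG10336, 727 nt away beyond its start, had -0.94 (adjusted p = 0.000310). Neither span overlaps that of msl-1. Leaving out 1 library at a time gave -0.94 to -0.71 for CG31751 and -1.18 to -0.75 for CG10336. Both genes were called on occupied genes only, but their calls did not hold without either Ctrl library. Reads were counted without regard to strand.

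The gene of the catalytic subunit, mof (FBgn0014340, FBtr0070829, X:5873840-5876853, minus strand), had 23.2 and 26.1 CPM in DomKD, against 34.4 and 35.2 CPM in Ctrl. The groups did not overlap and the libraries within each group were close. Its log2 fold change of -0.50 ± 0.20 (SE) was not called (edgeR adjusted p = 0.0693). In the fit over 33659 transcripts, of which 16.3% were called in either direction, the same span had an adjusted p of 0.0470, so mof sat at the limit of the test. It was -0.41 without DomKD replicate 1, -0.59 without DomKD replicate 2, -0.51 without Ctrl replicate 1 and -0.48 without Ctrl replicate 2. mof was not called with DESeq2 (-0.51, adjusted p = 0.167) or with replicate number in the edgeR model (-0.50, adjusted p = 0.131). Factors from early zygotic genes gave -0.72 (edgeR adjusted p = 0.129). With the background density of all chromosomes taken off each library, a value with no test, the log2 ratio of mof was -1.58. This took off 4.41 and 7.04 CPM per kb in DomKD and 4.64 and 4.23 in Ctrl. The X background was lower, 3.56 and 5.37 in DomKD and 3.31 and 3.16 in Ctrl, and a ratio with it was not computed. The difference of mof from the median of the occupied genes, background included, was -0.10. The flanking genes GAA1 (-0.70, adjusted p = 0.00678) and Usp30 (-0.69, adjusted p = 0.00755) were called lower, but not on occupied genes only (-0.33, adjusted p = 0.0704, for GAA1 and -0.31, adjusted p = 0.105, for Usp30).

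The male-limited subunit gene msl-2 (FBgn0005616, FBtr0077570, 2L:3462218-3466112, minus strand) had 367 and 211 CPM in DomKD, against 234 and 244 CPM in Ctrl. DomKD replicate 1 was above both Ctrl libraries and DomKD replicate 2 below both, so the groups overlapped. The log2 fold change was 0.27 ± 0.25 (SE, edgeR adjusted p = 0.447), with a 95% interval of -0.23 to 0.77. It was 0.61 without DomKD replicate 2, -0.18 without DomKD replicate 1 and -0.046 with factors from early zygotic genes. Beside the other occupied genes, in the fit on them alone, it was called higher at 0.60 (edgeR adjusted p = 0.000114). ND-PDSW, which starts 44 nt from msl-2 on the other strand, had a log2 fold change of 0.28 with DomKD replicate 1 highest and DomKD replicate 2 lowest, as at msl-2, and CG3246, 265 nt downstream, had -0.07. Neither was called, though ND-PDSW was called higher on occupied genes only (0.61, adjusted p = 5.43e-05) and was at -0.03 with factors from early zygotic genes.

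The chromodomain gene msl-3 (FBgn0002775, FBtr0076926, 3L:7123213-7125533, minus strand) had 46.6 and 37.1 CPM in DomKD and 49.9 and 46.7 CPM in Ctrl. The DomKD values were the 2 lowest, but 1 of them was within 0.1 CPM of a Ctrl library. Its log2 fold change of -0.21 ± 0.21 (SE) was not called (edgeR adjusted p = 0.481). It was -0.48 with factors from early zygotic genes (adjusted p = 0.251) and 0.15 on occupied genes only (adjusted p = 0.373). Without DomKD replicate 1 it was -0.39 and without DomKD replicate 2 it was -0.066. Its 3′ end overlaps that of form3 by 85 nt (log2 fold change -0.02), and BBS1, 371 nt away, had 0.48; neither was called.

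Its promoter held the only DRE among the 7 promoters, at -47 (the first base of the match, the base before the start being -1), the DRE (TATCGATA, its own reverse complement) being the site of the factor DREF that many housekeeping promoters carry; 8.04% of 16425 promoters held one. The stretch is shown with the match in capitals.
msl-3 promoter at 3L:7125534-7125633: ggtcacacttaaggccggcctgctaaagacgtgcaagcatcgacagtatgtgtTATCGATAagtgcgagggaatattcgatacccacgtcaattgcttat

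The helicase gene mle (FBgn0002774, FBtr0086031, 2R:5975094-5980778, minus strand) had 124.9 and 84.3 CPM in DomKD, against 118 and 126 CPM in Ctrl. DomKD replicate 1 lay between the Ctrl libraries and DomKD replicate 2 below them. The log2 fold change of mle was -0.22 ± 0.23 (SE, edgeR adjusted p = 0.506). Dropping DomKD replicate 2 put it at 0.030, and dropping DomKD replicate 1 put it at -0.53. With factors from early zygotic genes it was -0.51 (adjusted p = 0.168), and on occupied genes only 0.13 (adjusted p = 0.424). BubR1, 471 nt away, had a log2 fold change of -0.45 and was not called (adjusted p = 0.129). Fits lacking DomKD replicate 1 or 2 gave -0.56 and -0.35 for BubR1.

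**Figure D2:**
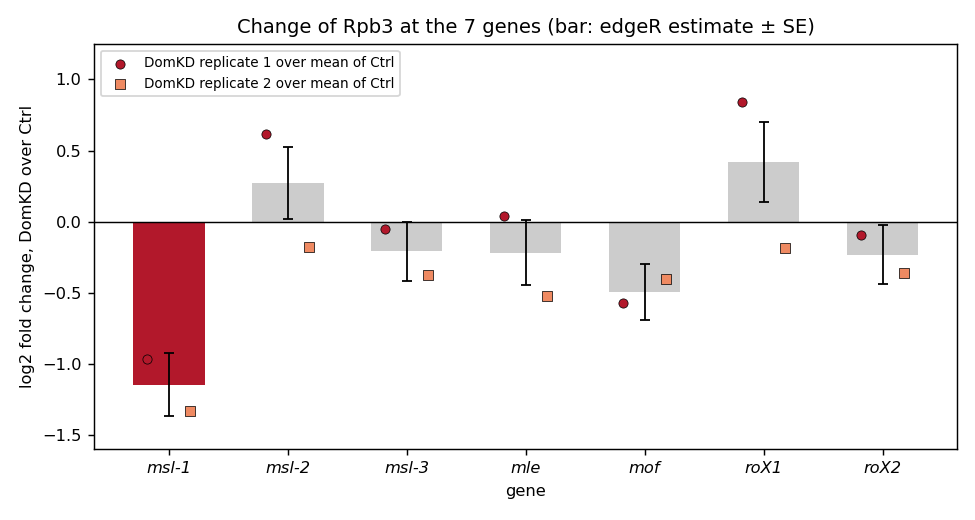
Log2 fold change of Rpb3 reads at the 7 genes, DomKD over Ctrl, with bars for the edgeR estimate and SE (n = 2 libraries each) and points for each DomKD library over the mean of the Ctrl libraries. The red bar is msl-1, the gene with an adjusted p under 0.05; at msl-2, mle and roX1 the 2 DomKD libraries lie on opposite sides of 0.

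At the noncoding RNA gene roX1 (FBgn0019661), the libraries had 1236 and 608 CPM in DomKD and 690 and 691 CPM in Ctrl. The 2 Ctrl libraries were alike to within 2 CPM, and the DomKD libraries lay on either side of them. roX1 had a log2 fold change of 0.42 ± 0.28 (SE, edgeR adjusted p = 0.291), with a 95% interval of -0.13 to 0.97. It was 0.83 without DomKD replicate 2, -0.19 without DomKD replicate 1 and 0.07 with factors from early zygotic genes. Beside the other occupied genes, in the fit on them alone, it was 0.73 (edgeR adjusted p = 9.17e-05). The direction at roX1 was therefore set by which DomKD library was read. In each library roX1 and msl-2 kept a similar ratio of densities, 2.72 and 2.32 in DomKD and 2.38 and 2.29 in Ctrl.

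The annotated transcripts of roX1 are nested, which allowed 4 segments to be read apart; a read across a border was counted with the inner segment. The 636 nt between the most distant annotated start and the inner start of FBtr0345714 had 3.97 and 1.40 times background in DomKD and 2.79 and 2.46 times in Ctrl. The 3122 nt after the inner start had 42.0 and 16.9 times in DomKD and 25.7 and 28.0 times in Ctrl. The next 663 nt were the densest, with 85.2 and 33.8 times in DomKD and 48.3 and 51.9 times in Ctrl. In all 4 libraries the density was thus low before the inner start and highest in the third of these segments, which holds the last of the 3 roX boxes.

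The last 1047 nt, the 3′ extension that only FBtr0345714 has, carried 60.3 and 18.04 times background in DomKD and 37.6 and 40.7 times in Ctrl. Of this extension, 392 nt overlap the 3′ end of ec on the other strand, which had a log2 fold change of 0.17 (-0.14 with factors from early zygotic genes, and called higher at 0.50 on occupied genes only), so the reads there cannot be assigned to 1 gene. On the other side yin, 268 nt beyond the most distant start of roX1, had 0.92 times the background of all chromosomes and a log2 fold change of 0.24.

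The inner start of roX1 had a TAGteam match, CAGGTAG, at -56. This heptamer is the site of Zelda, the pioneer factor of the early embryo, and in a search of both strands 1.63% of the 16425 promoters held it; among the 7 genes it was found in that of roX1. The promoter is shown from 100 nt before to 30 nt after the start, with the match in capitals.
roX1 promoter at X:3862032-3862161: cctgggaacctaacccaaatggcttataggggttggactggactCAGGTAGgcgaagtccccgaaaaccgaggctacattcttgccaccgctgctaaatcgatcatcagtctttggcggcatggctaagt
The other 2 motifs searched on both strands were GAGAGAGA, in 2.70% of promoters and in 0 of the 7, and TATAAA, in 44.2% of promoters and in those of msl-3, mle and roX2. In the whole spans GAGAGAGA had 0 matches in roX1 and 2 in roX2, and 5.32% of the X windows as long as roX2 held at least as many. A match describes the letters of the window and was not a measure of binding.

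roX2 (FBgn0019660) had 16.1 and 13.3 CPM in DomKD, against 17.4 and 17.1 CPM in Ctrl. The groups did not overlap, but the gap was small beside the spread of the DomKD libraries. At -0.23 ± 0.21 (SE, edgeR adjusted p = 0.432) its log2 fold change was not called, and it was -0.50 with factors from early zygotic genes (adjusted p = 0.441) and 0.13 on occupied genes only (adjusted p = 0.596). Its shared body (1020 nt) had 2.11 and 1.49 times background in DomKD and 2.48 and 2.90 times in Ctrl, and the 3′ extension (348 nt) 3.19 and 1.55 times in DomKD and 3.76 and 3.18 times in Ctrl. The neighbours nod, 339 nt away, and CG11695, 258 nt away, had log2 fold changes of 0.09 and -0.45 and were not called, though nod was called higher on occupied genes only (0.47, adjusted p = 0.00220). For 4 of the 7 genes (msl-1, msl-3, mof and roX2) the DomKD and Ctrl libraries did not overlap, as for 62.6% of all genes, a share close to theirs.

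**Figure D3:**
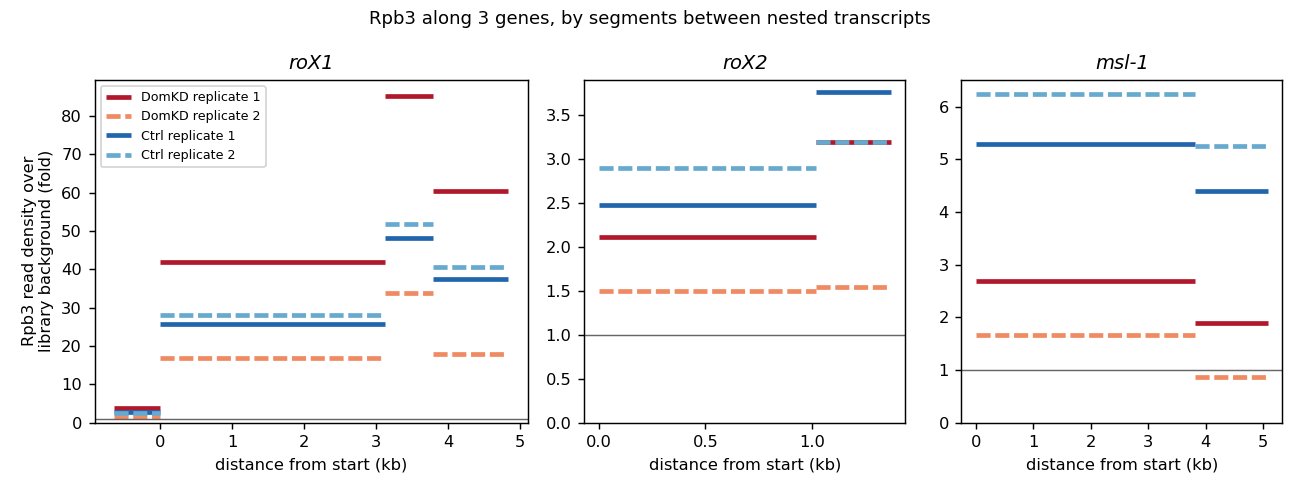
Rpb3 read density over background (fold) along roX1, roX2 and msl-1, in the segments that nested transcripts delimit, against distance from the start of the chosen transcript (kb); 1 line per library. In roX1 the region before the start was at most 3.97 times background and the densest segment reached 85.2 times; in msl-1 both segments were lower in both DomKD libraries.

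By the closeness of the 4 centred log2 CPM values, the most similar occupied gene was Uev1A for msl-1 (distance 0.04), CG4455 for msl-2 (0.02), CG4133 for msl-3 (0.03), Grip75 for mle (0.02), CG14712 for mof (0.05), Atg17 for roX1 (0.03) and Nasp for roX2 (0.01). With 4 libraries such closeness was common. Between 101 genes for roX1 and 738 for mle, of about 5495 candidates, were closer than 0.2.

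The genes around the MSL complex were read from a list of 10 cofactors and regulators: Clamp, a DNA-binding protein that brings the complex to the X, JIL-1, a histone kinase enriched on the male X, Set2, the methyltransferase for histone H3 lysine 36, Sxl, Unr and how, which act on msl-2 mRNA in females, and Top2, Mgtor, Nup153 and Su(var)3-7. Of these 3 were called lower and 0 higher by edgeR, with a median log2 fold change of -0.47, beside 12.7% lower and a median of 0.07 over all genes tested. All 3 were among the 7 occupied genes of the list (JIL-1, Set2 and Unr were not occupied), and of all occupied genes 30.6% were called lower. With DomKD replicate 1 left out, the median of the list was -0.67, beside 0.05 over all genes tested. Leaving out DomKD replicate 2 instead gave -0.38 for the list, beside -0.004 over all genes. The 3 were Su(var)3-7, a heterochromatin protein (-0.95, adjusted p = 0.00114), and the nuclear pore proteins Nup153 (-0.69, adjusted p = 0.0314) and Mgtor (-0.66, adjusted p = 0.0483).

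Sxl, the sex-determination switch that is transcribed in early female embryos and blocks MSL2 synthesis there, had 2617 and 1168 CPM in DomKD, against 1652 and 1612 CPM in Ctrl. The DomKD libraries lay on either side of the Ctrl libraries, with replicate 1 the higher, as at roX1 and msl-2. Sxl had a log2 fold change of 0.21 ± 0.30 (SE, edgeR adjusted p = 0.621). It was -0.48 without DomKD replicate 1, 0.67 without DomKD replicate 2 and -0.14 with factors from early zygotic genes. Beside the other occupied genes, in the fit on them alone, it was 0.51 (edgeR adjusted p = 0.0159). how, which encodes an RNA-binding protein that acts with Sxl, had a log2 fold change of -0.18 (adjusted p = 0.631), which was -0.51 without DomKD replicate 1, 0.083 without DomKD replicate 2 and 0.16 on occupied genes only.

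MOF also works in the NSL complex, which binds promoters of housekeeping genes in both sexes. Of 8 genes for this complex and the proteins purified with it, 5 were called lower and 0 higher, all 8 had a negative value, and the median log2 fold change was -0.66, beside 12.7% lower and a median of 0.07 over all genes tested and 30.6% lower and a median of -0.40 over the occupied genes, to which all 8 belong. The called genes were Rcd1 (-0.93, edgeR adjusted p = 0.000546), which encodes NSL3, pzg (-0.89, adjusted p = 0.00285) and nsl1 (-0.92, adjusted p = 0.00362), the gene of the scaffold of this complex. Rcd5 (-0.76, adjusted p = 0.00378) and wds (-0.57, adjusted p = 0.0382) were the others, and Chro, with a log2 fold change of -0.47, was not called (adjusted p = 0.185). nsl1 had 206 and 132 CPM in DomKD, against 309 and 330 CPM in Ctrl. The median of the 8 NSL genes was -0.90 with DomKD replicate 1 left out, beside 0.05 over all genes tested. It was -0.53 when DomKD replicate 2 was dropped instead, beside -0.004 over all genes. All 8 NSL values remained below 0 whichever library was left out. The calls of both lists were lost when either Ctrl library was left out, where the spread came from the unequal DomKD pair alone. With the quasi-likelihood test 4 NSL genes and 1 cofactor were called lower, beside 1721 lower and 212 higher among the 16513 genes.

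**Figure D4:**
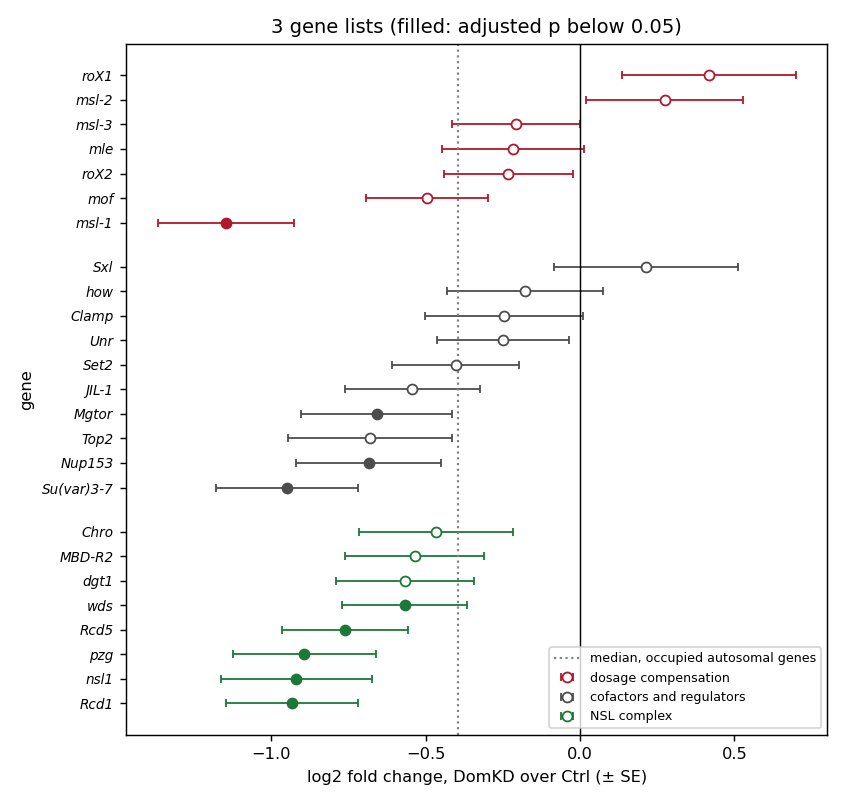
Log2 fold change (DomKD over Ctrl, ± SE, n = 2 libraries each) of the 7 dosage compensation genes, the 10 cofactors and regulators and the 8 NSL genes, with filled points for an adjusted p under 0.05. The dotted line marks the median of occupied autosomal genes at -0.40; roX1, msl-2 and Sxl, which were not called, are the points right of 0, and with factors from early zygotic genes msl-2 and Sxl are left of it, as all 3 are without DomKD replicate 1.

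The chromosomes on which these genes act served as context. Over 2509 X-linked genes the median log2 fold change was -0.02, with 363 genes (14.5%) called lower and 36 (1.43%) higher. Over 13916 autosomal genes it was 0.09, with 1728 (12.4%) lower and 365 (2.62%) higher. Among occupied genes the medians were -0.42 for 771 X-linked genes and -0.40 for 5176 autosomal genes.

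Taken per library, the median of the X-linked genes minus that of the autosomal genes, after each gene was centred on its mean, was -0.005 and -0.071 on the log2 scale in DomKD and 0.038 and 0.042 in Ctrl. Both DomKD libraries were below both Ctrl libraries, by 0.08 between the means (a difference of -0.08). An exact two-sided permutation test over the 4 libraries gave p = 0.333, the smallest p that 2 against 2 libraries allow, so this design could not pass a threshold of 0.05. The difference was -0.031 on occupied genes and -0.15 on genes that overlap no other gene. The background on the X was 0.798 and 0.747 times that on the autosomes in DomKD, against 0.700 and 0.730 times in Ctrl, and the part of this background in the difference was not tested.

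**Figure D5:**
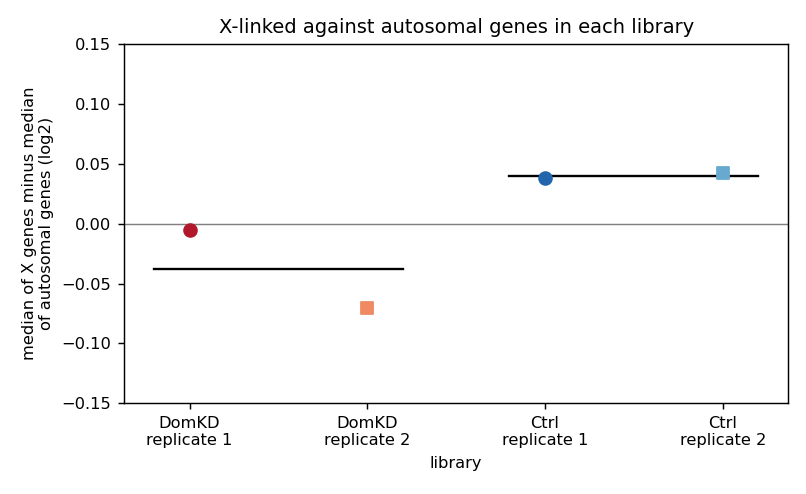
Median of X-linked genes minus median of autosomal genes, in log2 CPM centred per gene, with 1 point per library and lines for the group means. The 2 DomKD libraries sit at -0.005 and -0.071 and the 2 Ctrl libraries at 0.038 and 0.042; the exact permutation p was 0.333.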

How the data were processed

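The deposited table held raw counts: the authors trimmed, mapped to dm6 and deduplicated the Rpb3 ChIP reads and counted them over whole transcript spans with featureCounts (Ensembl 96), ignoring strand and adding a read to every transcript it overlapped. No input was subtracted. Transcript sums were 36692143 and 31739574 reads in DomKD and 40708710 and 28224617 in Ctrl. These counts overlap, so gene sums (1 transcript per gene, 8326380 to 12022600 reads) served as library sizes. Of 34793 transcript IDs, 34516 matched the Ensembl annotation used here, 34413 with an identical span.

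A span was tested where it was 125 nt or longer and summed to over 10 reads, using edgeR 4.0.16 in R 4.3.3 (likelihood ratio test, TMM, Benjamini-Hochberg over all genes, with 1 transcript per gene). The length and count limits follow the study, which tested every transcript, scaled on a gene set of its own and kept the most significant transcript of each promoter. A fit over all transcripts was run as well. DESeq2 1.42.0 was an alternative. The fit was also run on simulated counts with the same spread in both groups. That run cannot show how the fit behaves with the unequal pairs of these data. SEs came from the Fisher information, intervals assumed normality. Background was the mode of log2 density over spans above 2000 nt. Replicates are separate ChIP libraries; p-values measure the spread between them. The members and lists were chosen with earlier results of these data known. Text genes were the 7 members, dom, His2Av, tested genes overlapping or within 1000 nt of a member, list genes called (at most 5) or among the 2 with the highest counts, and each member's nearest gene (mean count of at least 100). Other samples were not used here.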

Additional observations from a re-analysis of the deposited data

How the results depend on the processing

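The 2497 called genes became 1155 with DESeq2, 1199 among genes overlapping no other gene, 1215 at an adjusted p under 0.01 and 137 to 8825 when 1 library was left out, the fewest without Ctrl replicate 2 and the most without DomKD replicate 1. With a lone library assumed to vary like the other group, leaving out a Ctrl library left the spread to the unequal DomKD pair. Leaving out a DomKD library left it to the close Ctrl pair, so such a fit holds no spread between knockdown libraries. The 5498 called transcripts became 2564 with DESeq2 and 2854 at an adjusted p under 0.01. Leaving out 1 library gave ranges of -1.35 to -0.98 for msl-1, -0.18 to 0.61 for msl-2, -0.39 to -0.066 for msl-3, -0.53 to 0.030 for mle, -0.59 to -0.41 for mof, -0.19 to 0.83 for roX1 and -0.38 to -0.11 for roX2. Factors from early zygotic genes turned msl-2 to -0.046, put mof at -0.72, mle at -0.51, roX2 at -0.50 and msl-3 at -0.48, and moved the median of all genes to -0.17, against 0.07. Scaling and testing on occupied genes only (chosen after seeing the data) gave 0.60 for msl-2, 0.73 for roX1, 0.15 for msl-3, 0.13 for mle and 0.13 for roX2. Values of that scaling are relative to the occupied genes as a set. That set was picked with the DomKD and Ctrl libraries together, so tests on it are not independent of the group difference. With the background density of all chromosomes taken off, a value with no test, msl-1 was at -2.02, mof at -1.58, roX2 at -0.79, mle at -0.50 and msl-3 at -0.48. For the X-linked mof and roX2 this took off more than the background of the X. The X minus autosome difference was -0.031 on occupied genes and -0.15 on genes overlapping no other gene. The causes of these shifts were not tested.

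Samples of the same number shared only that number: their deviations from the group means had a correlation of -0.20 over genes. With the replicate block 1858 genes were called (1643 lower, 215 higher) and 4221 transcripts; msl-1 was at -1.16 (edgeR adjusted p = 0.000287) and no member's call changed. The crossed pairing, added after seeing the data, called 3412 genes, mof among them at -0.50 (adjusted p = 0.0485).

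With 2 libraries a group, sparse genes such as roX2 and mof rest on 134 to 422 reads a library. Their 95% intervals, not adjusted over all genes, were -0.64 to 0.18 for roX2 and -0.88 to -0.11 for mof. After adjustment mof was not called (edgeR adjusted p = 0.0693). The SEs were 0.21 for roX2 and 0.20 for mof, against 0.28 for roX1, which had 5793 to 11518 reads a library. Smaller differences could go undetected in this design.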
